A study of Homo sapiens with 6 samples.

Results

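The host lncRNAs described here are long RNA genes that carry small nucleolar RNA (snoRNA) or microRNA genes inside their transcripts, together with the related nuclear lncRNAs MALAT1 and TUG1. They were chosen by name: SNHG genes (small nucleolar RNA host genes), genes named as microRNA host genes (MIR...HG), and GAS5, ZFAS1, EPB41L4A-AS1, NEAT1, MALAT1, DANCR and TUG1. The rule found 60 of the 19469 genes in the count table, and another 49 of the 109 matching genes of GENCODE 44 were not analysed here. By GENCODE 44, 28 of the 60 carry snoRNA genes on their own strand, 27 carry microRNA genes, 3 carry both, and none was found in MALAT1 and TUG1. GAS5 is counted among the 28 from RefSeq alone, without a match of strand. Genes of the scaRNA class (small Cajal body RNAs) are counted as snoRNA genes, and SNHG10, SNHG21 and SNHG22 carry only these. The cells were L3.6pl, an established human pancreatic cancer line of adenosquamous type that was derived from a lymph node metastasis. No treatment was given, and cells grown in DMEM with fetal bovine serum were sorted by FACS on the surface adhesion molecule L1CAM. The sorted populations are L1high (labelled L1CAM_POSITIVE, 3 libraries) and L1low (labelled L1CAM_NEGATIVE, 3 libraries). Both come from 1 cell line, whose name the sample characteristics write as L6.6pl. Nothing in the labels says that the libraries came from separate cultures, so p-values measure the spread between these libraries, which may be technical.

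A host gene yields more than 1 kind of RNA. SnoRNAs are mostly cut out of its spliced introns and then guide the methylation (C/D box class) or pseudouridylation (H/ACA box class) of ribosomal RNA, while the spliced remainder often enters the cytoplasm, is read by ribosomes over short frames and is removed by nonsense-mediated decay. MicroRNAs are excised from a primary transcript by Drosha and Dicer and repress messenger RNAs through their seed, bases 2 to 8. The libraries were made from polyadenylated RNA, so the counts of a host measure its polyadenylated long transcripts and not its mature small RNAs. All isoforms of a gene are counted together, so which of them changed cannot be told.

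Mature microRNAs of MIR205HG and MIR23AHG, which rose in L1low, are shown first, because they are what those transcripts can give rise to. NEAT1, which also rose, carries MIR612 near its 3′ end, at chr11:65444458-65444557. Whether isoforms that reach MIR612 rose cannot be told from these counts. The sequences shown are from the RefSeq microRNA table on GRCh38.p14, which held 95 mature sequences of 55 genes in 28 of the hosts. Capitals mark the seed. MiR-205 lies in MIR205HG at chr1:209432166-209432187 on the plus strand, and miR-23a, miR-27a and miR-24 lie in MIR23AHG on the minus strand of chromosome 19, at chr19:13836595-13836615, chr19:13836447-13836467 and chr19:13836289-13836310.
hsa-miR-205-5p: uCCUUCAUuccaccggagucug
hsa-miR-23a-3p: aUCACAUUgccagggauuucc
hsa-miR-27a-3p: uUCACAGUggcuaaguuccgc
hsa-miR-24-3p: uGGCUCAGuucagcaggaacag
Each of these 4 has a seed of its own. The seed shared by most genes was GAGGUAG of the let-7 family, found in 6 microRNAs of 5 hosts. Let-7a and let-7b show that the family differs outside the seed.
hsa-let-7a-5p: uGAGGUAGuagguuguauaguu
hsa-let-7b-5p: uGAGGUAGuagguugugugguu

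Next are snoRNAs of the hosts that fell in L1low, and SNORD26, whose own row fell while its host SNHG1 did not pass the test, all read from hg38. GAS5 carries 11 snoRNA genes in the RefSeq gene table and none in GENCODE 44. SNORD44 lies at chr1:173865968-173866028 and SNORD81 at chr1:173864146-173864222, both on the minus strand inside GAS5. SNORA73B lies in an intron of SNHG3 at chr1:28508559-28508762 on the plus strand, SNORA9 in SNHG15 at chr7:44985378-44985510 on the minus strand, and SNORD26 in SNHG1 at chr11:62855292-62855366 on the minus strand. Capitals mark the C box TGATGA and D box CTGA in C/D snoRNAs and the ACA box in H/ACA snoRNAs, searched on the strand of the gene.
SNORD44: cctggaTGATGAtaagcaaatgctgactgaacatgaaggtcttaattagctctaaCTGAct
SNORD81: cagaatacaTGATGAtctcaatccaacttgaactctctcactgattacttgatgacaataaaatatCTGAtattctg
SNORD26: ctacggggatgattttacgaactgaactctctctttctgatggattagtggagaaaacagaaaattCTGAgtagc
SNORA9: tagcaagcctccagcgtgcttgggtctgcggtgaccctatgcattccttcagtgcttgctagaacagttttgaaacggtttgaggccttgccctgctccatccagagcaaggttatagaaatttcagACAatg
SNORA73B: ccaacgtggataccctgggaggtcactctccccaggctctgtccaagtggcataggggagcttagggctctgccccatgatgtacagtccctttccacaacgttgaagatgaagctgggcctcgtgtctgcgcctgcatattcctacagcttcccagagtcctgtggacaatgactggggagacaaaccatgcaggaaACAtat
The letters TGATGA stood near the 5′ end of 6 of the 10 GAS5 C/D snoRNAs read, and CTGA near the 3′ end of all 10.

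L1CAM itself, the marker of the sort, was at 83.95, 69.8 and 89.5 CPM (counts scaled to the library total and TMM factor) in L1high replicates 1 to 3 and at 17.7, 23.7 and 19.99 CPM in L1low. On the log2 scale it was lower in L1low, with a fold change of -1.99 (SE, the standard error, 0.12, adjusted p = 4.69e-06 by the quasi-likelihood F-test of edgeR, adjusted after Benjamini and Hochberg, as are all adjusted p given here), so the labels match the transcript. Library totals ran from 16334610 to 21064685 counts. The study's own comparison table left out L1high replicate 3, without a stated reason, so values over the remaining 5 libraries are given where they change a call.

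The question put to these genes was whether host lncRNAs differ between L1low and L1high cells. MIR205HG, MIR23AHG and NEAT1, all microRNA hosts, rose in L1low by 1.645-fold, 1.31-fold and 1.26-fold. GAS5, SNHG3 and SNHG15, all snoRNA hosts, fell by 1.34-fold, 1.32-fold and 1.24-fold. The other 54 members did not pass the test. In such bulk samples, fewer cells with a transcript and less of it per cell cannot be told apart. The 3 members that rose are 5.0% of the 60, and 4.58% of the 19467 genes tested rose. The 3 that fell are also 5.0%, beside 3.37% of all genes. Over the study's 5 libraries 4 members rose and 2 fell, beside 4.41% and 3.15% of all genes. These shares of the members were near those of all genes.

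**Figure D1:**
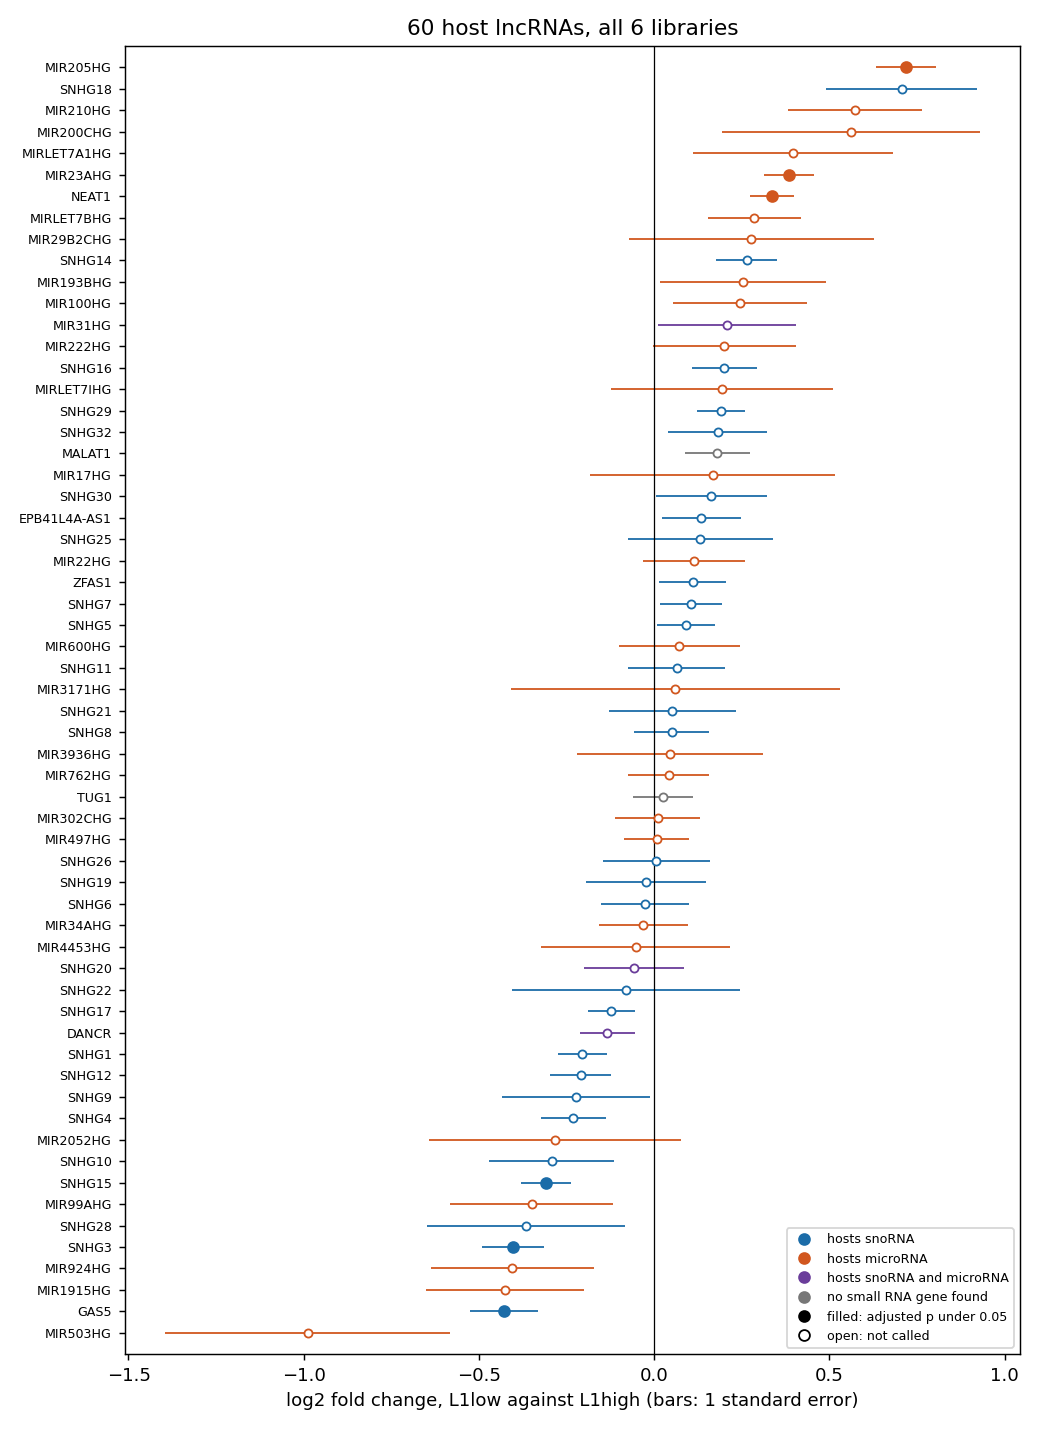
Log2 fold change of each of the 60 host lncRNAs in L1low against L1high cells, with bars of 1 standard error and colours for the kind of small RNA carried. The filled points are the 6 called genes, with 3 microRNA hosts on the right at 0.34 to 0.72 and 3 snoRNA hosts on the left at -0.43 to -0.31.

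Wider counts were also near the background. Unadjusted p was under 0.05 for 14 members (23.3%), and for 23.3% of all genes. In 9 members (15%) every L1low library was above every L1high library, beside 15.2% of all genes, and in 9 members (15%) every L1low library was below, beside 13.7%. The median log2 fold change was 0.06 over the members, -0.01 over all genes and 0.03 over the 2641 lncRNA genes tested.

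By the small RNA carried, 3 of the 27 microRNA hosts rose and 0 fell by edgeR, with a median of 0.11 on the log2 scale and 5 at an unadjusted p under 0.05. Of the 28 snoRNA hosts 0 rose and 3 fell by edgeR, with a median of 0.03 and 9 at an unadjusted p under 0.05. Beside these small counts, 4.58% of all genes rose, 3.37% fell and 23.3% had an unadjusted p under 0.05. DESeq2 called 3 members higher and 3 lower as well. A difference between the kinds of host was not tested. All 6 called genes were among the 26 members with a mean of 10 CPM or more, whose fold changes had a median SE of 0.088 (log2). The 34 members under 10 CPM had a median SE of 0.213, so changes of the size seen in the called genes were hard to detect there.

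MIR205HG carries miR-205, which is known in epithelial cells as a repressor of the transcription factors ZEB1 and ZEB2. Its level was 97.7, 110.4 and 90.4 CPM in L1high and 152.1, 172.8 and 166.6 CPM in L1low. Every L1low library was well above every L1high library. The rise was 0.72 on the log2 scale (SE 0.08, adjusted p = 0.00032), the largest rise among the called members.

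MIR23AHG is the host of the miR-23a, miR-27a and miR-24-2 cluster. It stood at 80.8, 73.4 and 79.8 CPM in L1high and at 106.0, 99.0 and 100.5 CPM in L1low. The groups did not overlap, and the log2 fold change was 0.39 (SE 0.07, adjusted p = 0.0062). ZSWIM4, a gene on the opposite strand that shares 2310 exon bases with it, had a log2 fold change of 0.27 and did not pass the test (adjusted p = 0.229). The strand option of the counting is not given in the sources used here, so reads from such antisense partners cannot be told apart.

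NEAT1 is the scaffold RNA of paraspeckles, nuclear bodies that hold proteins such as NONO and SFPQ. Counted over all its isoforms in polyadenylated RNA, NEAT1 was at 331.8, 315.3 and 317.6 CPM in L1high and at 415.5, 417.4 and 385.1 CPM in L1low. Here too the groups did not overlap (log2 fold change 0.34, SE 0.06, adjusted p = 0.00636). Without L1low replicate 2 it was at 0.32 and did not pass (adjusted p = 0.0577). MALAT1, its neighbour on chromosome 11 and a lncRNA of nuclear speckles, was at 201.4, 213.5 and 169.7 CPM in L1high and at 236.8, 226.2 and 199.6 CPM in L1low. Its groups overlapped and it did not pass the test (log2 fold change 0.18, SE 0.09, adjusted p = 0.271).

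MIR210HG, host of the hypoxia-induced miR-210, was a low transcript. Its values were 3.06, 3.21 and 4.39 CPM in L1high and 4.51, 5.07 and 6.16 CPM in L1low. The lowest L1low library was just above the highest L1high library, replicate 3. The log2 fold change of 0.57 did not pass the test over 6 libraries (adjusted p = 0.0958), while over the 5 libraries it was 0.75 and did (adjusted p = 0.0425). The let-7 hosts, named for their shared seed, did not pass the test, with log2 fold changes of 0.40 for MIRLET7A1HG, 0.29 for MIRLET7BHG, 0.24 for MIR100HG, 0.19 for MIRLET7IHG and -0.35 for MIR99AHG. MIR503HG and MIR1915HG had the lowest values among the microRNA hosts, -0.99 and -0.43, at a few CPM or less, and did not pass (adjusted p = 0.17 and 0.288). MIR503HG was at 1.08, 1.31 and 0.91 CPM in L1high and at 0.39, 0.95 and 0.34 CPM in L1low. The genes analysed exceeded 1 CPM in at least 2 libraries, which MIR503HG met only through L1high, so its value was not read as a fall.

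GAS5 (growth arrest-specific 5) is named after growth arrest, in which its spliced RNA accumulates. It stood at 166.5, 175.5 and 132.7 CPM in L1high and at 123.1, 118.8 and 111.2 CPM in L1low. The groups did not overlap, but L1high replicate 3 lay nearer to L1low than the other L1high libraries did. The fall on the log2 scale was -0.43 (SE 0.10, adjusted p = 0.0197), and -0.53 without L1high replicate 3 (adjusted p = 0.00121). GAS5-AS1, on the opposite strand with 132 shared exon bases, was at -0.13 and did not pass (adjusted p = 0.701). GAS5 did not pass without L1high replicate 1 or 2 or without L1low replicate 2 or 3, where its log2 value ran from -0.43 to -0.35 and the adjusted p reached 0.106.

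SNHG3, which carries SNORA73A and SNORA73B, was at 126.5, 126.4 and 115.3 CPM in L1high and at 105.0, 90.3 and 83.4 CPM in L1low. All L1low libraries were below all L1high libraries (log2 fold change -0.40, SE 0.09, adjusted p = 0.0165). It did not pass without L1high replicate 1 or without L1low replicate 2 or 3 (log2 values of -0.38 to -0.32, adjusted p up to 0.103). RCC1, on the same strand with 242 shared exon bases, did not pass the test at -0.19 (adjusted p = 0.124). SNHG15, host of SNORA9, was at 68.5, 65.8 and 71.9 CPM in L1high and at 55.0, 55.2 and 56.1 CPM in L1low. Its groups did not overlap and its L1low libraries were close together (log2 fold change -0.31, SE 0.07, adjusted p = 0.0205). Over the 5 libraries SNHG15 did not pass (-0.27, adjusted p = 0.0654), nor without L1high replicate 1 or L1low replicate 1 or 2 (-0.31 to -0.30, adjusted p up to 0.106).

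**Figure D2:**
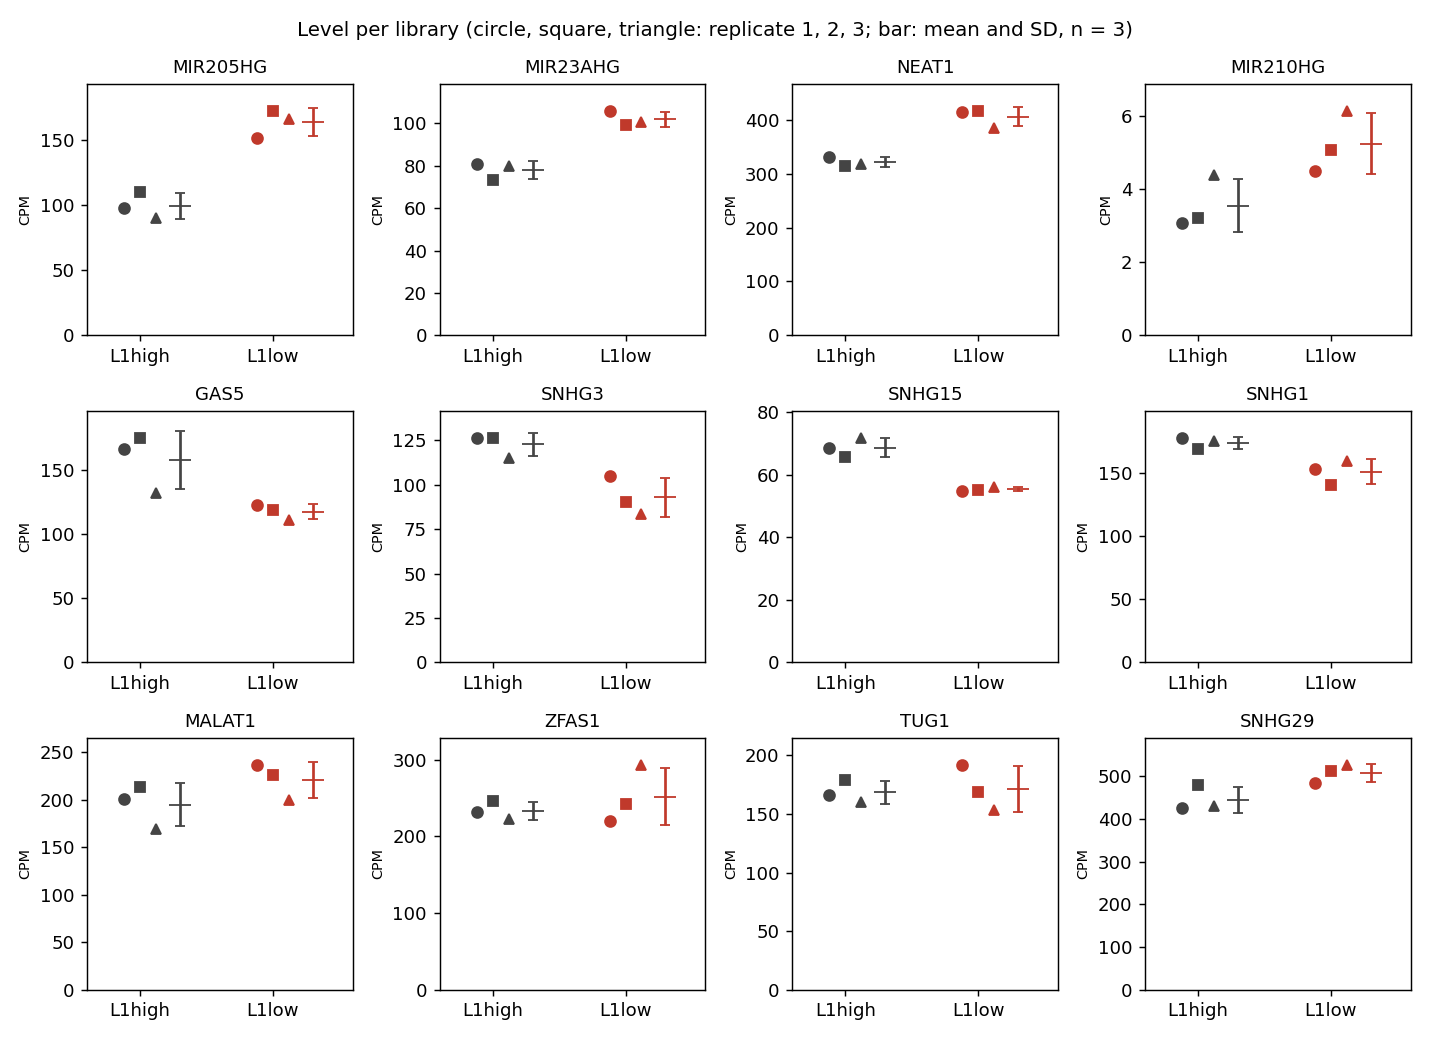
CPM of 12 host lncRNAs in each library, with the mean and SD of each group beside the points (n = 3). The L1low points lie above all L1high points for MIR205HG, MIR23AHG, NEAT1, MIR210HG and SNHG29, below them for GAS5, SNHG3, SNHG15 and SNHG1, and among them for MALAT1, ZFAS1 and TUG1.

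SNHG29 and SNHG1, highest per length as the mean of both groups, did not pass the test. Per kilobase of exon, SNHG29 was highest of the 60 at 53.3 CPM per kb as the mean of both groups, followed by SNHG1 at 40.9 and MIR205HG at 37.3. The length joins the exons of all annotated isoforms of a gene, so the ranking depends on which isoforms are annotated. The order of SNHG1 and MIR205HG turned between the groups, with 43.8 and 28.2 CPM per kb in L1high and 38.0 and 46.4 in L1low. SNHG29 was at 425.5, 480.1 and 430.2 CPM in L1high and at 485.4, 512.6 and 526.8 CPM in L1low, without overlap (log2 fold change 0.19, adjusted p = 0.114), and passed at 0.25 without L1high replicate 2. SNHG1, host of the snoRNA cluster that includes SNORD26, was at 178.0, 168.8 and 175.6 CPM in L1high and at 153.6, 140.2 and 159.5 CPM in L1low, also without overlap (-0.20, adjusted p = 0.0984). The remaining singly named hosts were ZFAS1 (log2 fold change 0.11, SE 0.10), EPB41L4A-AS1 (0.14 and 0.11), DANCR (-0.13 and 0.08) and the nuclear lncRNA TUG1 (0.03 and 0.09). SNHG6 was at -0.03 (SE 0.13). SNHG18 was at 0.71, with a standard error of 0.22 (adjusted p = 0.0712), and passed at 0.86 without L1low replicate 1.

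Of 200 small RNA genes inside the hosts, 27 had a row of their own in the table, 24 of them snoRNAs and 3 microRNAs. These rows held few counts, with a median of 35.3 counts a library. In 23 of the 27 the gene lies wholly or partly in an annotated exon of its host, so reads of the long transcript and of the small RNA cannot be told apart. MIR205 rose like its host, from 13.25, 10.8 and 15.2 CPM in L1high to 23.45, 23.8 and 22.2 CPM in L1low (log2 fold change 0.83, SE 0.12, adjusted p = 0.00181). SNORD26 in SNHG1 fell (-0.74, SE 0.18, adjusted p = 0.0313), though not over the 5 libraries (adjusted p = 0.0898). All 7 snoRNA rows of SNHG1 had negative values, from -0.74 to -0.37. In SNHG3, SNORA73B was at -0.53, and in SNHG15, SNORA9 was at -0.67, and neither passed the test. Other rows went against their host without passing the test, as SNORD12 (-0.76) and SNORD12B (-0.48) in ZFAS1 and SNORD65 (-0.52) and SNORD49A (-0.30) in SNHG29. Those of ZFAS1 were near the floor, at 7 counts for SNORD12 and 10 for SNORD12B in L1low replicate 3. SNORD12B exceeded 1 CPM in L1high replicates 1 and 3, but in L1low only in replicate 1. Over the 27 rows 7 values were positive and the median was -0.30. These rows are not separate, as they lie in 12 hosts, with 7 in SNHG1 and 5 in SNHG12, and SNORA16A was entered more than once at the same place. Of the 27, 2 were called, beside 4.58% higher and 3.37% lower among all genes. An unadjusted p under 0.05 was found for 6, beside 23.3% of all genes.

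**Figure D3:**
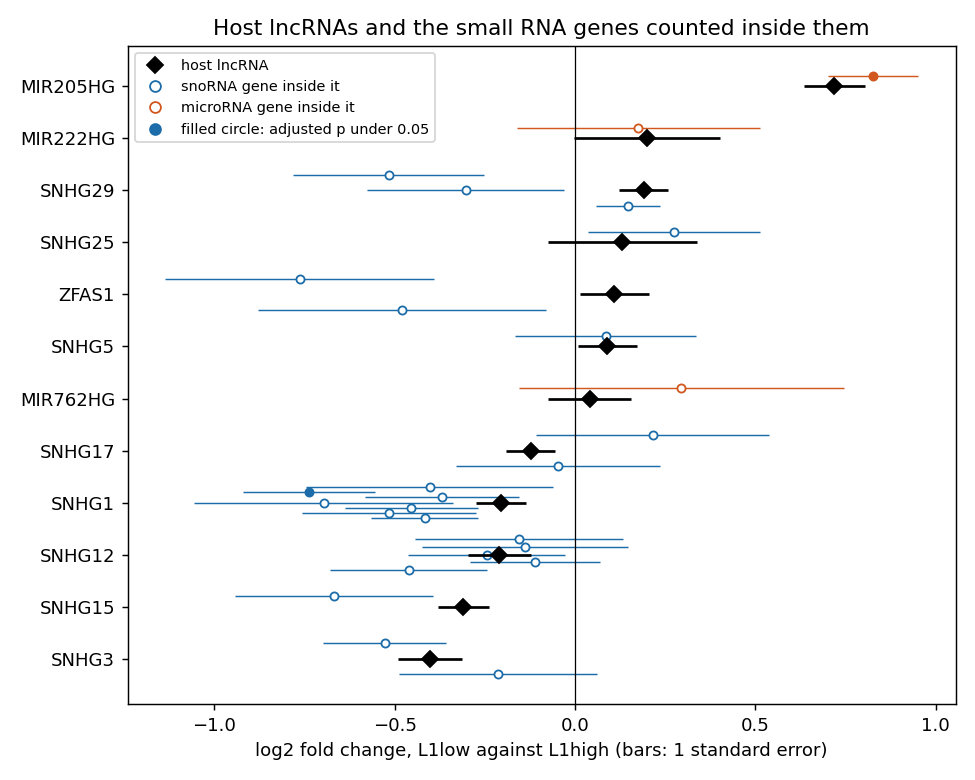
Log2 fold change of 12 host lncRNAs (diamonds) and of the 27 small RNA rows inside them (circles), with bars of 1 standard error. MIR205 sits beside its host on the right, and the 7 snoRNA rows of SNHG1 all lie to the left of 0.

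Sequence at the start of the genes was compared with all genes, because many snoRNA hosts are known to begin, like ribosomal protein genes, in a run of pyrimidines. Of the 60 members 53 had a start in the RefSeq promoter table. A run of 7 or more C or T on the gene's strand lay within 20 bases of the listed start in 14 of 24 snoRNA hosts (58.3%), in 8 of 24 microRNA hosts (33.3%) and in 25.3% of all 27305 genes. Windows of 40 bases show a long run in SNHG29 (chr17:16438967-16439006, plus strand), a run at the start in ZFAS1 (chr20:49278622-49278661, plus strand) and a short run in SNHG3 (chr1:28505923-28505962, plus strand), with the longest run in capitals.
SNHG29: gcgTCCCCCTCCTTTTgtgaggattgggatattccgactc
ZFAS1: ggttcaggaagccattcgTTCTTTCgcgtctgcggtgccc
SNHG3: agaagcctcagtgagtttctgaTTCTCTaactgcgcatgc
The run is a match of letters and was not tied to the changes in level.

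Genes of the pathways that these hosts feed were mostly not called. Among all genes 4.58% rose, 3.37% fell and 23.3% had an unadjusted p under 0.05. Of 12 snoRNP proteins, which bind snoRNAs, 11 had negative values, and the list's median was -0.20. By edgeR 0 of them rose and 2 fell, with 5 at an unadjusted p under 0.05. The genes that fell were NOLC1 (-0.36, adjusted p = 0.00331), a nucleolar chaperone of snoRNPs, and NOP56 (-0.32, adjusted p = 0.0343), a core C/D box protein and itself a snoRNA host. Over the 5 libraries NOP56 did not pass (adjusted p = 0.0685). FBL, the methyltransferase of C/D snoRNPs, was at 0.14 and did not pass. Of 83 cytosolic ribosomal protein genes 1 rose, RPL28, and 0 fell by edgeR, with 6 at an unadjusted p under 0.05. RPL22L1 was at -0.23 (adjusted p = 0.177), and fell over the 5 libraries (-0.32, adjusted p = 0.0425). Of 10 microRNA processing genes AGO4 rose (0.36, adjusted p = 0.0283). Of 10 nonsense-mediated decay genes 0 were called by edgeR, with 1 at an unadjusted p under 0.05.

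**Figure D4:**
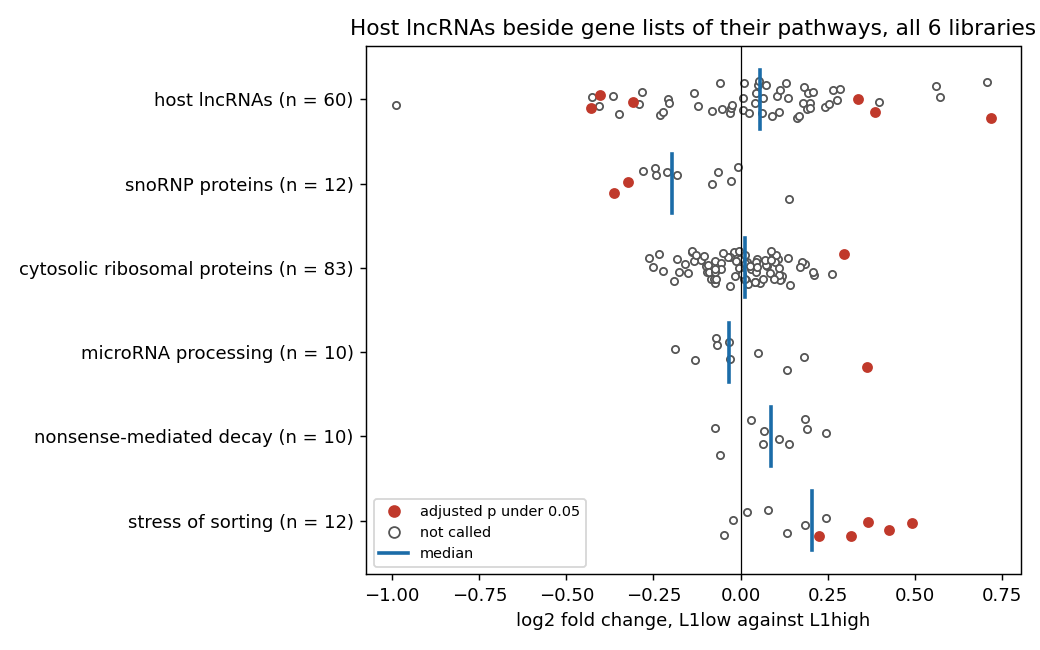
Log2 fold change of the 60 host lncRNAs and of 5 gene lists, with called genes filled and the median as a line. The snoRNP proteins have the lowest median at -0.20 and the genes of sorting stress the highest at 0.21.

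Of 12 genes of sorting stress 5 rose and 0 fell by edgeR, with 7 at an unadjusted p under 0.05. Beside them, 4.58% of all genes rose, 3.37% fell and 23.3% had an unadjusted p under 0.05. FOS, FOSB, EGR1, ATF3 and IER2 rose, the other 7 did not pass the test at -0.05 to 0.24, and the list's summed level was 8444 to 9064 CPM in L1high and 10377 to 11124 CPM in L1low. Of 8 fibroblast markers 2 had rows. LUM rose (0.78, adjusted p = 0.000135), and COL3A1, at 1.02 to 2.20 CPM, did not pass the test (0.29, adjusted p = 0.629). The summed level of the 2 was 79.9 to 90.8 CPM in L1high and 131.35 to 151.1 CPM in L1low, nearly all of it LUM. Of 6 epithelial markers, KRT19 rose (0.63, adjusted p = 0.000136) and EPCAM fell (-0.30, adjusted p = 0.0496), and their summed level was 4232 to 5130 CPM over the libraries. The part of these differences in the changes of the host lncRNAs was not tested.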

How the data were processed

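RNA of 6 sorted L3.6pl libraries (3 L1high, 3 L1low) was sequenced by the authors as paired-end stranded mRNA libraries, aligned to GRCh38 with BWA, which does not split reads over splice junctions, and assigned with featureCounts to gene models of Ensembl 94. The authors deposited raw read counts for each gene. Each of the 19469 genes exceeded 1 CPM in at least 2 libraries, so lower genes were not analysed here. The test of L1low against L1high ran in edgeR 4.0.16 under R 4.3.3 (TMM factors, filterByExpr, quasi-likelihood test, Benjamini-Hochberg adjustment over 19467 genes, calls at an adjusted p under 0.05). CPM values use TMM factors, and a standard error is the log2 fold change divided by the square root of F. Names and positions came from GENCODE 44, which gave symbols for 19344 identifiers. Lengths for CPM per kb are its exon lengths, with the exons of all isoforms of a gene joined.

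Named genes were the called members, the 7 named singly, the 10 highest per kb, the 3 largest rises and falls, and hosts of a called small RNA. Small RNA rows, let-7 hosts and genes of the lists named beyond this were chosen after their values were seen. The members and lists were chosen with earlier results of these data known. The fit was tested on simulated data. The closest pair of libraries in a group had a chi-square per degree of freedom of 3.66 over genes, so none was counted as a duplicate. Alternatives left out each library in turn, added the replicate block, or changed the tool, scaling or filter. Mitochondrial transcripts were not analysed here. Some results on items withheld for evaluation are not reported here.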

Additional observations from a re-analysis of the deposited data

How the results depend on the processing

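The direction of each of the 6 called host lncRNAs held under all 13 alternatives, and MIR205HG and MIR23AHG passed the test in all 13. The same 6 genes were called with DESeq2 1.42.0, RLE or upper-quartile factors, library totals alone, no filter on low counts, and at least 10 counts in every library. Leaving out 1 library moved the calls. Over these alternatives the genes called ranged from 627 to 1473 (393 to 859 higher, 234 to 614 lower), and the host lncRNAs called ranged from 2 to 4 higher and from 0 to 2 lower. GAS5 did not pass without L1high replicate 1 or 2 or L1low replicate 2 or 3, SNHG3 without L1high replicate 1 or L1low replicate 2 or 3, SNHG15 without L1high replicate 1 or 3 or L1low replicate 1 or 2, and NEAT1 without L1low replicate 2. No host lncRNA was called lower without L1high replicate 1 or L1low replicate 2, and only SNHG15 without L1low replicate 3.

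Same-numbered libraries deviated together by correlations of 0.0743, 0.0906 and 0.208, which do not all exceed 0.1, so the numbers were not taken to pair libraries, although each library correlated best with its own number. With the replicate block 2363 genes were called (1220 higher, 1143 lower) and 6 host lncRNAs were higher, the added ones being SNHG14, MIR210HG and SNHG18, and 3 lower. Without single libraries, values that did not pass the test changed sign, with a range of -0.17 to 0.13 for SNHG6, -0.063 to 0.11 for TUG1 and -0.0028 to 0.20 for ZFAS1. At 16334610 to 21064685 counts a library, depth limits the members under 10 CPM. Counts of MIR503HG fell under 10 in a library, so it has no value under that filter.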
